A study of Mus musculus with 12 samples.

Results

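Messenger RNAs of the oxidative phosphorylation machinery were measured by RNA sequencing of polyadenylated RNA in a mouse embryonic stem cell line, E14 Tg2a, with and without a disrupted Pcbp1 gene. The genes were chosen by symbol: Nduf for complex I, Sdh for complex II and Uqcr for complex III. Cox4 to Cox8 stood for complex IV, Atp5 for complex V, and mt- symbols marked the mitochondrially encoded subunits. Complexes were assigned by these symbols alone, and whether each product is a subunit of that complex was not checked. Of 55487 gene rows, 110 carried such a symbol. Pseudogenes (8 rows) and genes that averaged under 1 CPM (assigned reads scaled to a library of 1e6) over the 12 libraries (16 rows) were left out, which gave 86 members. The nuclear genome encodes 79 of them: 36 in complex I, 4 in complex II, 8 in complex III, 14 in complex IV and 17 in complex V. The mitochondrial genome encodes 7: mt-Nd1, mt-Nd2, mt-Nd4, mt-Nd5 and mt-Nd6 of complex I, mt-Cytb of complex III and mt-Co1 of complex IV.

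Each of the 4 groups held 3 libraries, from 3 independent clones. EpiLC KO libraries came from Pcbp1 knockout clones after 48 h in medium with bFGF (12 ng/ml), activin A (20 ng/ml) and 1% knockout serum replacement on fibronectin, which gives epiblast-like cells (EpiLCs). EpiLC WT libraries came from control clones, called Scr in the series text and WT in the labels, under the same treatment. Naive KO and naive WT libraries came from knockout and control clones in N2B27 medium with LIF, PD0325901 (1 uM) and CHIR99021 (3 uM). All 4 groups share the parent line, and the replicate number stands for the clone.

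The respiratory chain passes electrons from NADH (complex I) or succinate (complex II) through complexes III and IV to oxygen. Complexes I, III and IV pump protons across the inner mitochondrial membrane, and complex V, the ATP synthase, uses the gradient to make ATP. Complex II is wholly nuclear encoded; the others combine subunits of both genomes. Naive mouse embryonic stem cells are known to use respiration as well as glycolysis, and primed epiblast cells to rely mostly on glycolysis. Pcbp1 encodes an RNA-binding protein that binds C-rich stretches and also acts as an iron chaperone.

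Library totals ranged between 27146744 and 42204511 assigned reads. Pcbp1, the targeted gene, had 250.3, 301.8 and 264.9 CPM in EpiLC KO and 692.1, 511.9 and 591.5 CPM in EpiLC WT, a log2 fold change of −1.14 (SE 0.11, adjusted p = 0.000124, edgeR quasi-likelihood test with Benjamini-Hochberg adjustment over 18134 genes). In naive cells it had 295.3, 302.5 and 302.9 CPM in KO and 475.4, 417.9 and 474 CPM in WT (log2 −0.60, SE 0.11, edgeR adjusted p = 0.00576). Pcbp1 mRNA was therefore lower but present in every KO library. Summed formative and primed epiblast markers reached 3620 to 3770 CPM in EpiLC KO, 3020 to 5200 in EpiLC WT, 123 to 201 in naive KO and 116 to 158 in naive WT, and summed naive markers 372 to 499, 412 to 988, 3920 to 4260 and 4180 to 4300 CPM in the same order. Of other cell types, the 6 endoderm markers were all called higher in EpiLC KO, with summed levels of 24.8 to 33.4 CPM in EpiLC KO against 2.43 to 9.34 in EpiLC WT. Summed 2-cell-like markers reached 2.08 to 25.9 CPM in EpiLC KO and 0.859 to 3.33 in EpiLC WT, with 1 of 3 tested called higher. Summed primitive streak and mesoderm markers reached 13.5 to 20.1 CPM in EpiLC KO and 5.72 to 10.3 in EpiLC WT (1 of 4 tested higher), and summed fibroblast markers 18 to 32.2 and 8.93 to 17.9 CPM (0 of 4 called by edgeR or DESeq2, 1 higher at an unadjusted p under 0.05). Of 8 genes of RNA quality and stress, edgeR and DESeq2 called 0 in EpiLC KO, with 0 at an unadjusted p under 0.05, and edgeR called 3 lower in naive KO. In bulk RNA, fewer cells of a type and less RNA per cell cannot be told apart, and the part of these markers in the results below was not tested.

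The mitochondrial genome also encodes 6 subunits whose rows were at 0 in every library: mt-Co2 and mt-Co3 of complex IV, mt-Atp6 and mt-Atp8 of complex V, and mt-Nd3 and mt-Nd4l of complex I. Most of their sequence has a copy in the nuclear genome, and under the default counting a read that maps to both places is not assigned. In the transcripts, every one of the 635 stretches of 50 bases of mt-Co2 also occurred in another gene, most often the nuclear gene Gm28661. The shared share was 99.9% for mt-Co3, 99.5% for mt-Atp6, 98.8% for mt-Nd4l and 98% for mt-Nd3. mt-Atp8 shared none with another transcript. Only annotated transcripts were searched, so a nuclear copy of mt-Atp8 outside annotated genes was not tested. On the mitochondrial chromosome mt-Atp8 (7766-7969) lies between mt-Co2 and mt-Atp6. Their copies, Gm28661 (chr1:24614885-24615565) and Gm10925, are separated by a gap. The copies of mt-Co2, mt-Co3, mt-Atp6 and mt-Nd3 lie on the minus strand of chromosome 1 (GRCm38), within 24611535 to 24615565. The first bases of a pair identical over all 678 aligned bases, and of a pair that differs at a single base of 345, show how close they are. Gm10925 lies at chr1:24613974-24614651 and mt-Atp6 at chrM:7927-8607; Gm28438 lies at chr1:24612775-24613119 and mt-Nd3 at chrM:9459-9806. Capitals mark the base that differs between mt-Nd3 and its copy, T3C, counted from the first base of the transcript.

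mt-Atp6: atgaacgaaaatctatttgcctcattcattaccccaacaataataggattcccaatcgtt
Gm10925: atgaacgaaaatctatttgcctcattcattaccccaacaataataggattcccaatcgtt
mt-Nd3: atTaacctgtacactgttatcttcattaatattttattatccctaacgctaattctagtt
Gm28438: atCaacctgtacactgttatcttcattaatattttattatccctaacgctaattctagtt

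The chromosome 1 copies of mt-Co2, mt-Co3 and mt-Atp6 took 0 to 2 reads per library, and the reads of the mt-Nd4l copy were not examined. Gm28438, the copy of mt-Nd3, took more. It had 198, 4 and 154 reads in EpiLC KO, 30, 20 and 107 in EpiLC WT, 62, 42 and 21 in naive KO and 86, 31 and 120 in naive WT, with no separation of the groups. Complex V is therefore seen here only through nuclear genes. Among the 7 mitochondrial members, mt-Nd4 shared 62.2% of its stretches and mt-Co1 51.1%, and a read inside a shared stretch is not assigned. mt-Nd2 shared 8.19%, mt-Nd5 7.61%, and mt-Nd1, mt-Nd6 and mt-Cytb none. mt-Nd6 is on the opposite strand to its neighbour mt-Nd5 and overlaps it. The counting did not use strand, so RNA of the mt-Nd5 strand over sequence annotated to mt-Nd6 alone would count to mt-Nd6. How far the mt-Nd6 counts stem from such RNA was not tested.

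Per length, mitochondrial mRNAs were among the most abundant members. mt-Co1, the catalytic core subunit of complex IV, was the highest member in every group, at 3170 CPM per kb in EpiLC KO, 4720 in EpiLC WT, 4480 in naive KO and 5620 in naive WT. Among nuclear members, Atp5b, the catalytic beta subunit of ATP synthase, was highest at 512 CPM per kb in EpiLC KO, 608 in EpiLC WT, 579 in naive KO and 634 in naive WT. All 7 mitochondrial means lay above it in naive KO and naive WT, whereas in both EpiLC groups mt-Nd4, mt-Nd5 and mt-Nd6 lay below it (401, 454 and 495 CPM per kb in EpiLC KO, and 468, 468 and 502 in EpiLC WT). The lowest medians per length were those of complexes I and V: for complex I 37.1 CPM per kb in EpiLC KO, 43.4 in EpiLC WT, 48.9 in naive KO and 49.5 in naive WT. Complexes III and IV had higher medians, for complex IV 86.3, 93.3, 110 and 97 CPM per kb in the same order of groups. Members varied widely inside a complex: in complex V, Atp5l stood at 0.979 to 1.16 CPM per kb in the 4 groups. Its annotated exons sum to 6443 bp and it shared 9.99% of its stretches of 50 bases, so its level per kb also depends on annotation and counting. Reads shared with other genes are also lost for nuclear members: 51 of the 86 shared at least 1 stretch of 50 bases with another gene, 20 shared 10% or more and 2 (mt-Nd4 and mt-Co1) 50% or more. Ndufs5, left out of the members at 0.453 CPM, shared 21.7% with BC002163.

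The summed CPM of the 79 nuclear members was 9339, 10390 and 11240 in EpiLC KO, 12910, 11860 and 11130 in EpiLC WT, 12200, 12220 and 12770 in naive KO and 14010, 12920 and 12700 in naive WT. EpiLC KO held the lowest library, and its highest library overlapped the lowest of EpiLC WT. The summed CPM of the 7 mitochondrial members was 12480, 6312 and 12130 in EpiLC KO, 11110, 16040 and 15000 in EpiLC WT, 19340, 10630 and 16540 in naive KO and 18980, 15710 and 18990 in naive WT. Here KO replicate 2 was the lowest library of its group in both conditions. By complex, the nuclear sums in EpiLC KO and EpiLC WT averaged 2422 ± 217 and 2716 ± 170 CPM for complex I, 545.6 ± 23.7 and 589 ± 37.5 for complex II, and 957.3 ± 110 and 1188 ± 101 for complex III (SD, n = 3). They averaged 1422 ± 164 and 1625 ± 156 CPM for complex IV and 4976 ± 464 and 5852 ± 505 CPM for complex V. The mean was lower in EpiLC KO for all 5 complexes, and only the complex III and complex V ranges did not overlap (838.1 to 1054 CPM against 1080 to 1280, and 4534 to 5459 CPM against 5509 to 6432). This separation holds on the TMM scale: without TMM factors the highest EpiLC KO library lay above the lowest EpiLC WT library in both (1078 against 1062 CPM in complex III, and 5582 against 5413 CPM in complex V).

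**Figure D1:**
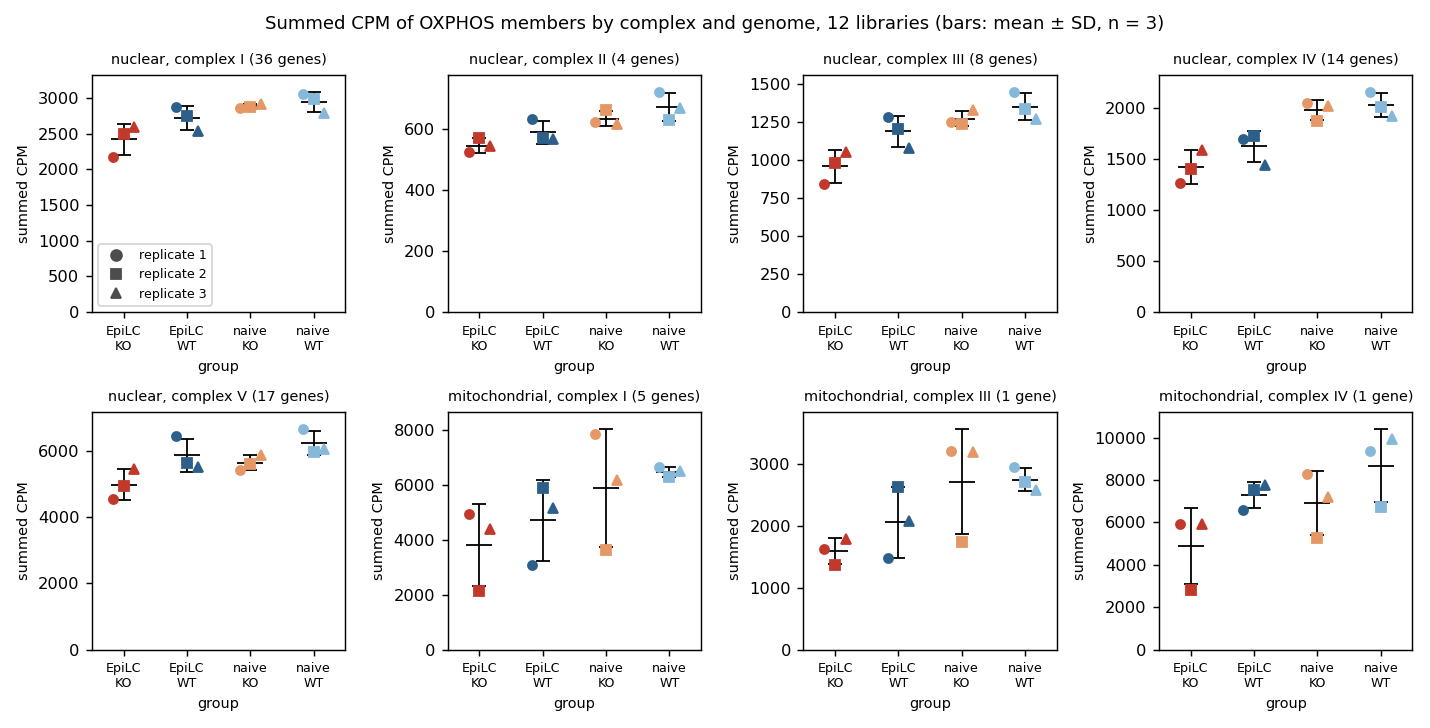
Summed CPM of the members of each complex and genome in each library (points, shaped by replicate), with the mean and SD of 3 libraries, for EpiLC KO, EpiLC WT, naive KO and naive WT. The nuclear means are lowest in EpiLC KO, and KO replicate 2 is lowest of its group in all 3 mitochondrial panels.

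The first comparison asks how loss of Pcbp1 affects these mRNAs in EpiLCs. In EpiLC KO, 8 members were called lower and 1 higher than in EpiLC WT. Those lower were 5 subunits of complex I, 2 of complex III and 1 of complex IV; the member higher was Cox7b2, an isoform of complex IV best known from testis. Over all genes tested, 15% were called in this contrast (7.14% higher and 7.9% lower), and of the members 10.5% (1.16% higher and 9.3% lower), so the share called lower was near the background and the share called higher below it. The log2 fold change was negative for 69 of 86 members, with a median of −0.19, against a median of 0 over all genes. The nuclear medians were −0.15 in complex I, −0.14 in complex II, −0.21 in complex III, −0.21 in complex IV and −0.21 in complex V. All EpiLC KO libraries lay below all EpiLC WT libraries for 20 members and above for 2; over all genes tested these shares were 17.2% and 16.1%.

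In complex III, Uqcrc1 (ENSMUSG00000025651.14, GRCm38 chr9:108936633-108949623), a core subunit, had 187.2, 221.1 and 234.9 CPM in EpiLC KO and 351.6, 297.8 and 290.2 CPM in EpiLC WT. The groups did not overlap, and its log2 fold change of −0.55 had an edgeR adjusted p of 0.00491. In naive cells it had 307.7, 336.9 and 337 CPM in KO and 347.5, 322.7 and 312.8 CPM in WT, which overlap (log2 −0.00, SE 0.10). The difference between the conditions, an interaction of −0.55 (SE 0.15), was not called in the unpaired fit (edgeR adjusted p = 0.145). With the clone as a replicate block it was called (−0.55, edgeR adjusted p = 0.0384), and over all alternatives its adjusted p ranged between 0.0354 and 0.359. Uqcr10, a small accessory subunit, had 68.1, 90.46 and 103.9 CPM in EpiLC KO and 130.6, 133.3 and 103.7 CPM in EpiLC WT (log2 −0.49, SE 0.15, edgeR adjusted p = 0.0413), with the groups meeting at their replicates 3. The other core subunit, Uqcrc2, was not called (log2 −0.16, SE 0.11, edgeR adjusted p = 0.364).

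In complex I, Ndufa10, an accessory subunit, had 121.4, 129.5 and 130.6 CPM in EpiLC KO and 171.4, 149.2 and 169 CPM in EpiLC WT (log2 −0.36, SE 0.08, edgeR adjusted p = 0.0105). In naive cells it had 132.8, 132.2 and 129.4 CPM in KO and 160.8, 156.9 and 152.1 CPM in WT, also without overlap, but was not called (log2 −0.25, SE 0.08, edgeR adjusted p = 0.0665). Ndufa13, an accessory subunit also known as GRIM19, had 73.22, 88.9 and 77.31 CPM in EpiLC KO and 121.5, 101.8 and 94.1 CPM in EpiLC WT (log2 −0.41, SE 0.12, edgeR adjusted p = 0.0359). All 3 EpiLC KO libraries were below all EpiLC WT libraries for both genes.

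Ndufa5, an accessory subunit, had 17.29, 23.23 and 22.87 CPM in EpiLC KO and 31.73, 29.02 and 27.9 CPM in EpiLC WT (log2 −0.48, SE 0.14, edgeR adjusted p = 0.0399). Ndufv3, an accessory subunit of the NADH-oxidising module, had 58.92, 59.2 and 54.41 CPM in EpiLC KO and 86.77, 66.41 and 72.32 CPM in EpiLC WT (log2 −0.39, SE 0.12, edgeR adjusted p = 0.0476). Among the members called in EpiLC KO against WT, these 2 calls were lost most often, each in 8 of 13 alternative settings. Uqcrc1 was called in all 13. Ndufa13 shares 28.5% of its stretches with other genes, most often Tssk6 (1.12 CPM), so reads in an overlap were not assigned to any of them.

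In complex IV, Cox6a1, the widely expressed subunit 6A isoform, had 94.99, 117.9 and 123.2 CPM in EpiLC KO and 170.3, 153.9 and 124.6 CPM in EpiLC WT (log2 −0.42, SE 0.12, edgeR adjusted p = 0.0351). The groups were separated by a narrow gap at their replicates 3. In naive cells Cox6a1 had 218, 232 and 227.9 CPM in KO and 251.7, 241.3 and 248.1 CPM in WT. These groups did not overlap either, but it was not called (log2 −0.13, edgeR adjusted p = 0.565). In EpiLCs other core and structural subunits were not called: Cox4i1 (log2 −0.19, SE 0.11), Cox5a (0.00, SE 0.17) and Cox5b (−0.31, SE 0.12). Complex V had 14 of 17 negative fold changes and no call by edgeR, with 4 lower at an unadjusted p under 0.05 and 0 by DESeq2. Its catalytic pair, Atp5a1 (log2 −0.27, SE 0.11, edgeR adjusted p = 0.129) and Atp5b (−0.25, SE 0.09, edgeR adjusted p = 0.0912), did not pass the test. Without EpiLC KO replicate 1, 2 members were called lower in EpiLC KO, without EpiLC KO replicate 2 there were 4, and without EpiLC WT replicate 1 there were 3. Of the further isoforms, Cox7a2, Cox7a2l and Cox8a of complex IV and Atp5g1, Atp5g2 and Atp5g3, which encode the proton-carrying ring of complex V, none was called between KO and WT in either condition.

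**Figure D2:**
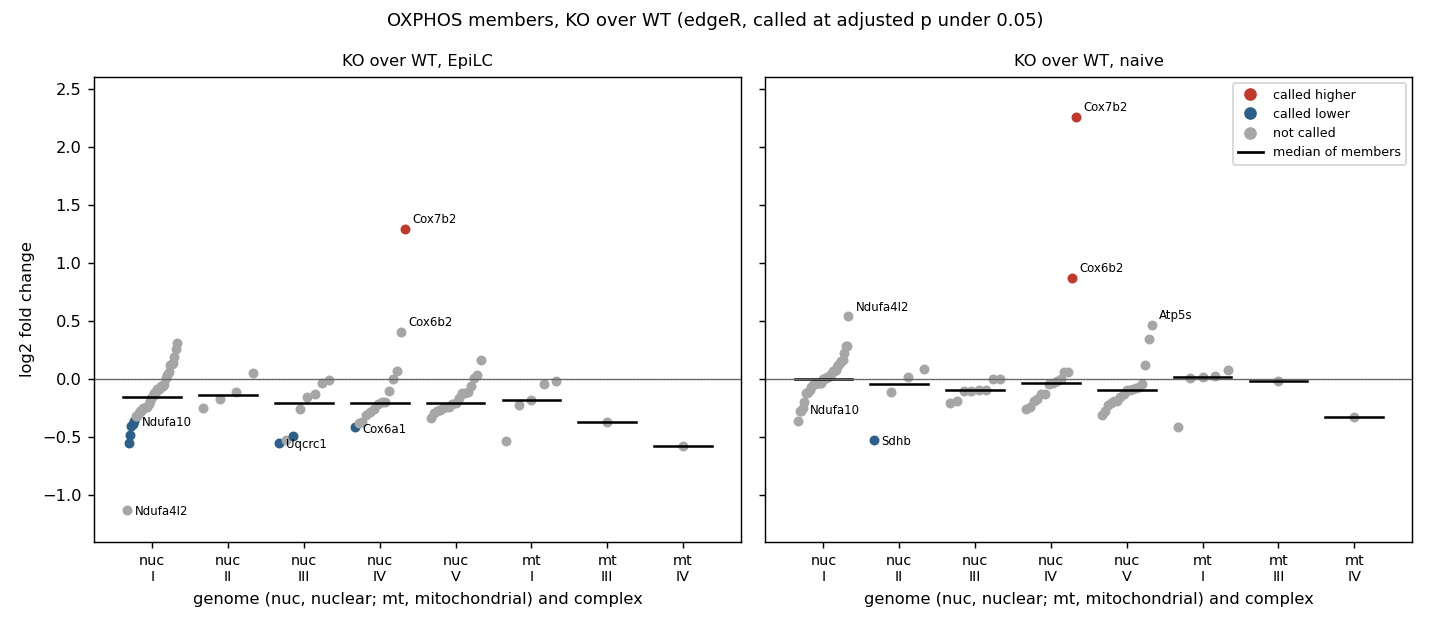
Log2 fold change of KO over WT for each member, by genome and complex, in EpiLCs (left) and naive cells (right). Blue points were called lower and red points higher at an edgeR adjusted p under 0.05, and bars are medians; the EpiLC medians of all groups of members lie below 0.

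Promoter sequence gave a property that the choice of members did not use. RefSeq promoters (GRCm38.p6, 250 bases before to 50 after the start) were matched for 64 of the 79 nuclear members. The core motif of NRF1, a regulator of respiratory genes, searched as GCGCA, any base and GCGC on both strands, occurred in 16 of the 64 (25%) and in 5.19% of 27025 genes. The ETS motif CCGGAAG, bound by GABPA, occurred in 16 (25%) against 9.93%, and the YY1 motif AAGATGGC in 9 (14.1%) against 3.19%. Member promoters also held a median of 19 CpG dinucleotides against 8 over all genes, with 57.2% against 53.3% G and C, and no comparison at equal base content was made. Of the 7 members lower in EpiLC KO that have an entry, 3 held the NRF1 motif (Cox6a1, Ndufa5 and Uqcrc1), 1 the ETS motif (Cox6a1) and 0 the YY1 motif. The promoters of those 3 are shown because they carry the matches; capitals mark the motifs, on either strand. They lie at chr9:108936398-108936697 on the plus strand (Uqcrc1), chr5:115348909-115349208 on the minus strand (Cox6a1) and chr6:24527477-24527776 on the minus strand (Ndufa5, the first of its 2 entries).

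Uqcrc1: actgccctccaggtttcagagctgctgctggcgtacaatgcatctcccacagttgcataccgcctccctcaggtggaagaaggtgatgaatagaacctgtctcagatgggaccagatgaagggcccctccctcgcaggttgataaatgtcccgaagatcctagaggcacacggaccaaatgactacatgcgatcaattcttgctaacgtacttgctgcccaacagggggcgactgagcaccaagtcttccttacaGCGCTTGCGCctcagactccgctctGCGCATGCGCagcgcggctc
Cox6a1: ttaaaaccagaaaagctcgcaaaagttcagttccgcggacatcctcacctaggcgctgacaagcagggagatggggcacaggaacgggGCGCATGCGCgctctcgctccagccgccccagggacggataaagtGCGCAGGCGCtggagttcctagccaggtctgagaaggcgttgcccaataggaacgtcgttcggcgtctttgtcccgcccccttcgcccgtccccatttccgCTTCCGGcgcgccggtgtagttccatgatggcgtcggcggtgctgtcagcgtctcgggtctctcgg
Ndufa5: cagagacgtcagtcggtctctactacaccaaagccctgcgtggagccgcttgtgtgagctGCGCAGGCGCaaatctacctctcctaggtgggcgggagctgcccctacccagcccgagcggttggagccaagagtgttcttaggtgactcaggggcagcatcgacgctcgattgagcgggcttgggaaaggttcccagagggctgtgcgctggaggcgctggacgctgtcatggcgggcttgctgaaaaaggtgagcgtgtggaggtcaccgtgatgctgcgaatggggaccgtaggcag

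The Uqcrc1 window holds 2 NRF1 matches close to the start. The Cox6a1 window holds 2 further upstream, and an ETS match closer to the start. The printed Ndufa5 window holds 1 NRF1 match, further upstream than those of Cox6a1. The matches are a description of these letters. Nrf1 mRNA itself was not called in either KO contrast (log2 −0.23, SE 0.10 in EpiLCs and −0.26, SE 0.10 in naive cells), and neither was Gabpa (0.15, SE 0.15 in EpiLCs and −0.10, SE 0.15 in naive cells).

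In naive cells, 2 members were called higher and 1 lower in KO than in WT, which is 3.49% of members against 9.24% of all genes (4.25% higher and 4.99% lower). The median log2 fold change was −0.04, with 54 of 86 negative, against 0 over all genes. All naive KO libraries lay below all naive WT libraries for 14 members and above for 6, against 15.3% and 15.1% of all genes. Both members called higher were isoforms of complex IV, and the member called lower belongs to complex II.

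Cox7b2 (ENSMUSG00000049387.10, GRCm38 chr5:71442824-71548205), the isoform of Cox7b best known from testis, had 21.69, 16.6 and 9.228 CPM in naive KO and 2.211, 4.903 and 2.815 CPM in naive WT. Its log2 fold change of 2.26 (SE 0.37, edgeR adjusted p = 0.00314) was the largest KO difference among members in either condition. In EpiLCs it had 12.97, 9.488 and 12.7 CPM in KO and 3.198, 6.387 and 4.788 CPM in WT (log2 1.30, SE 0.36, edgeR adjusted p = 0.0315). Every KO library was above every WT library of its condition. Its paralog Cox7b was far more abundant, at 115.6 ± 13.8 CPM in EpiLC KO, 138.4 ± 25 in EpiLC WT, 162.6 ± 13 in naive KO and 167 ± 19.8 in naive WT (SD, n = 3), and was not called between KO and WT (EpiLC log2 −0.26, SE 0.14; naive log2 −0.04, SE 0.14).

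Cox6b2 (ENSMUSG00000051811.14, GRCm38 chr7:4751792-4753094), likewise the isoform of Cox6b1 known from testis, had 149.6, 119.8 and 108.3 CPM in naive KO and 71.35, 53.68 and 81.31 CPM in naive WT (log2 0.87, SE 0.16, edgeR adjusted p = 0.00596). In EpiLCs it had 52.72, 59.89 and 45.23 CPM in KO and 38.43, 41.76 and 38.74 CPM in WT, apart but not called (log2 0.41, SE 0.16, edgeR adjusted p = 0.109). Cox6b1, the widely expressed form, had fold changes of the other sign, −0.24 (SE 0.13) under naive and −0.38 (SE 0.13) under EpiLC conditions, and was not called. Neither Cox7b2 nor Cox6b2 shares a stretch of 50 bases with another gene. Other isoforms limited to certain tissues, Cox4i2, Cox6a2, Cox8b and Cox8c, were under 1 CPM on average.

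Sdhb (ENSMUSG00000009863.14, GRCm38 chr4:140961203-140979193), the iron-sulphur subunit of succinate dehydrogenase, had 110.3, 133.7 and 114.6 CPM in naive KO and 164.7, 186.9 and 164.4 CPM in naive WT (log2 −0.53, SE 0.10, edgeR adjusted p = 0.00585). In EpiLCs it had 94.35, 107.4 and 101.1 CPM in KO and 117.8, 125.6 and 117.4 CPM in WT (log2 −0.25, SE 0.10, edgeR adjusted p = 0.0979). KO libraries lay below WT libraries in both conditions. The other subunits of complex II, Sdha, Sdhc and Sdhd, had fold changes of 0.09, −0.11 and 0.01 under naive conditions, against −0.11, −0.17 and 0.05 under EpiLC conditions, and none was called. The naive calls of Sdhb, Cox7b2 and Cox6b2 held in all 13 alternatives.

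**Figure D3:**
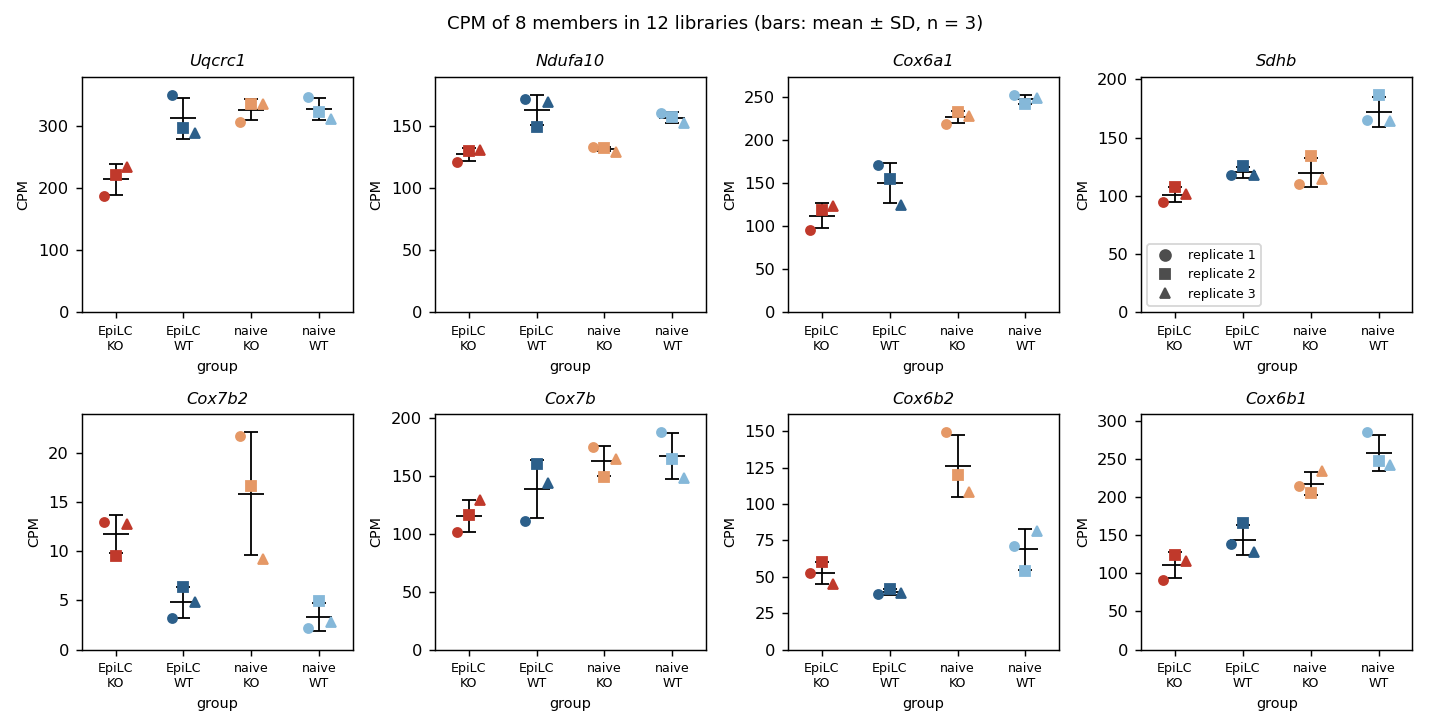
CPM of 8 members in each library (points, shaped by replicate) with the mean and SD of 3 libraries, in EpiLC KO, EpiLC WT, naive KO and naive WT. Uqcrc1 separates KO and WT in EpiLCs alone by rank. Sdhb, Ndufa10, Cox6a1 and Cox6b1 lie lower in KO without overlap in both conditions. Cox7b2 and Cox6b2 lie higher in KO while Cox7b and Cox6b1 do not.

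The mitochondrially encoded mRNAs had negative fold changes for all 7 members in EpiLCs, with a median of −0.22, and for 3 of 7 in naive cells; without the KO replicate 2 libraries the EpiLC count was 3 of 7. None was called in either condition by edgeR or DESeq2, with 1 lower at an unadjusted p under 0.05 in EpiLCs and 0 in naive cells. The member with that p, mt-Co1, had 5926, 2833 and 5939 CPM in EpiLC KO and 6580, 7530 and 7770 CPM in EpiLC WT (log2 −0.57, SE 0.25, edgeR adjusted p = 0.148), and in naive cells 8288, 5279 and 7180 CPM in KO and 9386, 6724 and 9920 CPM in WT (log2 −0.33, SE 0.25). mt-Nd1 had 1756, 927.5 and 1860 CPM in EpiLC KO and 1124, 2930 and 2515 CPM in EpiLC WT (log2 −0.53, SE 0.34). The spread inside groups was wide, and the standard errors of the 7 members lay between 0.23 and 0.38 in EpiLCs.

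KO replicate 2 held the lowest CPM of all 7 mitochondrial members within both KO groups. Its mitochondrial chromosome took 0.666% of assigned reads in EpiLCs, against 1.05% to 1.61% in the other EpiLC libraries, and 1.1% in naive cells, against 1.62% to 2% in the other naive libraries. The ratio of its mitochondrial mRNAs to the mean of the other 2 libraries of its group had a median of 0.478 in EpiLCs (range 0.334 to 0.8) and 0.545 in naive cells (range 0.38 to 0.683). The medians of the other 10 libraries lay between 0.687 and 1.53. Without both KO replicate 2 libraries, an alternative chosen after these values were seen, the EpiLC log2 fold change was negative for 3 of the 7 members in place of all 7. It was −0.30 in place of −0.57 for mt-Co1, −0.28 in place of −0.53 for mt-Nd1, 0.29 in place of −0.04 for mt-Nd5 and 0.34 in place of −0.02 for mt-Nd6. None of the 7 was called (edgeR adjusted p between 0.226 and 0.969).

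The same libraries stood apart on chromosome 17. Relative to the other KO libraries of their condition, all 32 genes measured from Eml4 (start 83350931) to the end were lower, with a median log2 difference of −0.93 in the EpiLC library and −0.94 in the naive library. Between 42 Mb, a boundary chosen after the values were seen, and Eml4, the 176 genes had medians of 0.43 and 0.44. The member inside the lower segment is Cox7a2l (chr17:83501918-83517330), which promotes supercomplexes of III and IV: it had 38.69 CPM in EpiLC KO replicate 2 and 48.42 in naive KO replicate 2, against 76.45 to 96.91 CPM in the other 10 libraries. In the higher segment, Ndufv2, a subunit of the NADH-oxidising module, had 147.9 CPM in EpiLC KO replicate 2 and 205.4 in naive KO replicate 2, and Ndufa11, an accessory subunit, 74.66 and 70.45, each the highest of its condition. Lrpprc (chr17:84705247-84790789), which stabilises mitochondrial mRNAs, is no member but lies in the lower segment. It had 117.6 CPM in EpiLC KO replicate 2 and 101.4 in naive KO replicate 2, against 194.2 to 255.5 CPM elsewhere. The part of this segment in the mitochondrial values was not tested.

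**Figure D4:**
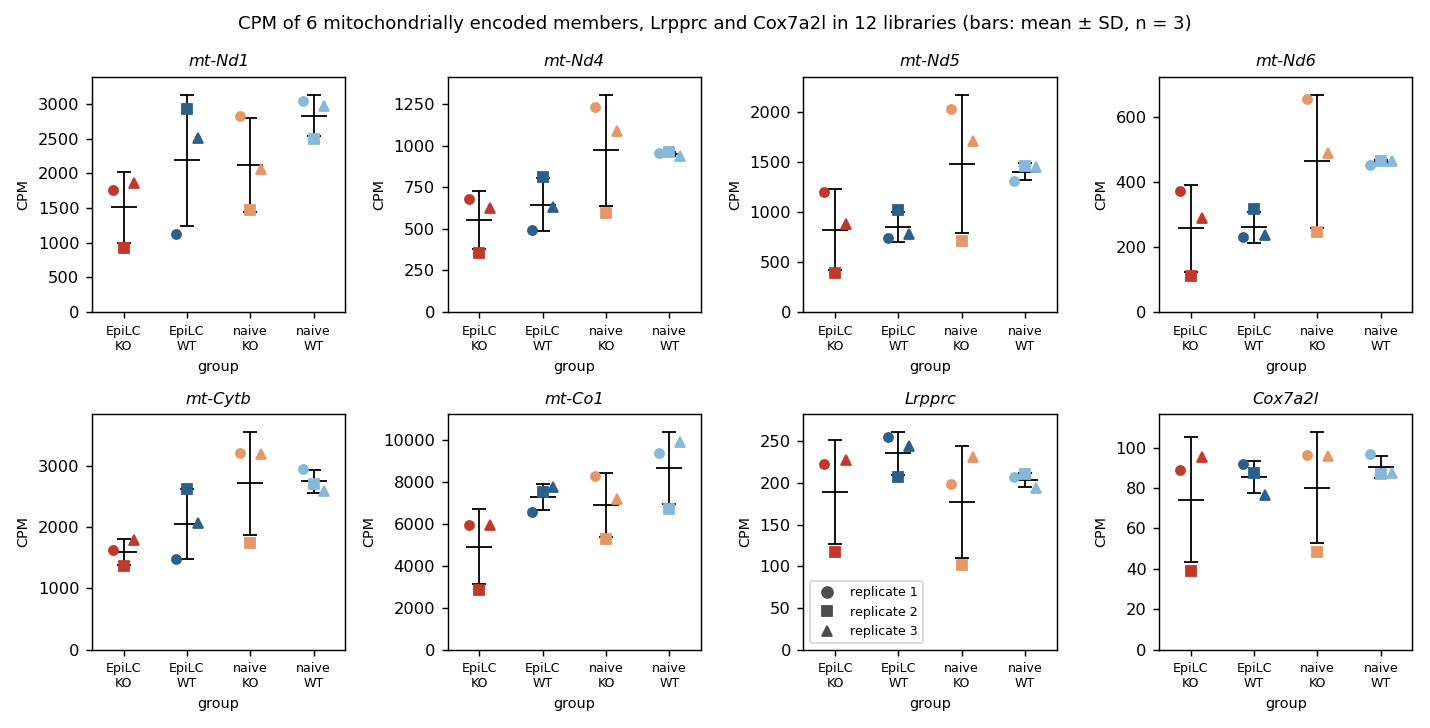
CPM of 6 mitochondrially encoded members and of Lrpprc and Cox7a2l, which lie on chromosome 17, in each library (points, shaped by replicate) with the mean and SD of 3 libraries, in EpiLC KO, EpiLC WT, naive KO and naive WT. KO replicate 2 (squares) is lowest of its group in all 8 panels, in both conditions.

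Leaving out both KO replicate 2 libraries, 4 nuclear members were called in EpiLCs, all lower, among them Uqcrc1 (log2 −0.57, edgeR adjusted p = 0.0219), Ndufa10 (−0.37, 0.0415) and Ndufa13 (−0.49, 0.0393). Cox7b2 then had a log2 fold change of 1.43 and an edgeR adjusted p of 0.0566. In naive cells Sdhb (−0.61), Cox7b2 (2.22) and Cox6b2 (0.91) were still called.

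A further comparison asks how the members change as cells leave the naive state. In KO clones, 34 members were lower and 1 higher in EpiLCs than in naive cells, which is 40.7% against 55.1% of all genes (27% higher and 28% lower). In WT clones, 21 were lower and 1 higher, 25.6% against 52.6% of all genes (26.3% each way). By direction, the members called lower were 39.5% in KO clones, above the share of all genes, and 24.4% in WT clones, near it. Those called higher were 1.16% in each genotype, and that member was Ndufa4l2. The median log2 fold change was −0.26 in KO clones and −0.13 in WT clones, against −0.04 and −0.01 over all genes. EpiLC libraries lay wholly below naive libraries for 39 members in KO clones and 25 in WT clones, against 32.9% and 29.9% of all genes, and wholly above for 1 and 4, against 31.4% and 29.3%.

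By complex, the nuclear members called lower in KO and in WT clones numbered 12 and 8 of 36 in complex I, 2 and 1 of 4 in complex II, 4 and 3 of 8 in complex III, 8 and 5 of 14 in complex IV, and 6 and 4 of 17 in complex V. Complex IV had the lowest nuclear medians, −0.45 in KO clones and −0.16 in WT clones. All 21 members lower in WT clones were also lower in KO clones, 61.8% of the KO list. The KO and WT contrasts use different libraries.

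In complex IV, Cox7a1, the subunit 7A isoform known from heart and muscle, had 2.044, 3.964 and 3.492 CPM in EpiLC KO and 10.96, 13.37 and 13.35 CPM in naive KO (log2 −1.99, SE 0.29, edgeR adjusted p = 9.01e-05). In WT clones it had 3.681, 5.715 and 2.926 CPM in EpiLCs and 14.71, 10.48 and 13.49 CPM in naive cells (log2 −1.65, SE 0.29, edgeR adjusted p = 0.000394). Its level was low throughout, and the EpiLC and naive libraries did not overlap in either genotype. Cox5a, a core structural subunit, had 33.94, 47.75 and 56.16 CPM in EpiLC KO and 93.98, 85.3 and 93.17 CPM in naive KO (log2 −0.98, SE 0.17), and 52.51, 41.72 and 43.13 CPM in EpiLC WT and 100.5, 130.2 and 94.53 CPM in naive WT (log2 −1.24, SE 0.17). Cox5b was lower in KO clones (log2 −0.46, SE 0.12, edgeR adjusted p = 0.00469) and had −0.09 (SE 0.12) in WT clones. Cox6a1 (−1.01 in KO and −0.72 in WT clones), Cox6b1 (−0.98 and −0.84) and Cox6b2 (−1.26 and −0.80) were lower in both.

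In complex III, Uqcrb, which helps form the ubiquinone pocket, had 59.15, 80.82 and 74.86 CPM in EpiLC KO and 153.1, 150.9 and 159.3 CPM in naive KO (log2 −1.11, SE 0.14, edgeR adjusted p = 2.98e-05). In WT clones it had 65.94, 90.91 and 78.14 CPM in EpiLCs and 172.1, 181.8 and 142.9 CPM in naive cells (log2 −1.08, SE 0.14, edgeR adjusted p = 4.17e-05). EpiLC libraries lay below naive libraries in both genotypes, and the interaction was −0.03 (SE 0.20). In complex I the members with the smallest adjusted p among those lower included Ndufa3 (−0.89 in KO and −0.81 in WT clones) and Ndufa6 (−0.71 and −0.53), both accessory subunits. In complex II, Sdhb fell by 0.24 on the log2 scale in KO clones (edgeR adjusted p = 0.0474) and by 0.52 in WT clones (edgeR adjusted p = 0.000684). The KO call was lost in 9 of 14 alternatives, among them RLE size factors, DESeq2, no filter on low counts and leaving out naive KO replicate 2 or 3 or EpiLC KO replicate 1 or 3; over all of them its log2 fold change ranged between −0.29 and −0.13. The WT call held in all 13. In complex V, Atp5h, a subunit of the peripheral stalk, was lower in both (−0.44 and −0.48), while Atp5a1 (−0.09 and −0.00) and Atp5b (−0.18 and −0.06) were not called.

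Ndufa4l2, a paralog of Ndufa4 induced by hypoxia in other cells, was the member called higher in EpiLCs in both genotypes. It had 101, 76 and 50 reads in EpiLC KO and 14, 1 and 3 in naive KO (log2 3.41, SE 0.70, edgeR adjusted p = 0.00115). In WT clones it had 193, 39 and 176 reads in EpiLCs and 3, 6 and 3 in naive cells (log2 5.07, SE 0.74, edgeR adjusted p = 0.000102). The EpiLC libraries lay above the naive ones, at low levels of 1.912 ± 0.463 CPM in EpiLC KO and 4.165 ± 2.37 CPM in EpiLC WT (SD, n = 3). The gene overlaps Shmt2 (304 CPM) on the other strand, and the counting did not use strand. By the defaults, reads over exons of both genes were assigned to neither, and a read of Shmt2 over sequence annotated to Ndufa4l2 alone would count to Ndufa4l2. Ndufa4 itself had 129.5 ± 15 CPM in EpiLC KO and 133.4 ± 22.3 CPM in EpiLC WT and was not called in any contrast.

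All 7 mitochondrial mRNAs had negative fold changes between EpiLC and naive cells in both genotypes, with medians of −0.77 in KO clones and −0.42 in WT clones. In the unpaired fit, mt-Cytb (log2 −0.77, SE 0.23, edgeR adjusted p = 0.0127) and mt-Nd4 (−0.81, SE 0.28, edgeR adjusted p = 0.0244) were called lower in KO clones. In WT clones none was called by edgeR or DESeq2, with 0 at an unadjusted p under 0.05. mt-Cytb had 1619, 1362 and 1786 CPM in EpiLC KO and 3215, 1744 and 3188 CPM in naive KO, which overlap only through KO replicate 2. mt-Nd4 had 679, 353.2 and 624.9 CPM in EpiLC KO and 1233, 593.1 and 1086 CPM in naive KO, with the same overlap. Within each of the 3 KO clones the EpiLC value was below the naive value for both genes. Each of these calls was lost in 4 of 14 alternatives, among them leaving out EpiLC KO replicate 2.

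With the clone as a replicate block, the calls in the mitochondrial genome increased. In WT clones mt-Nd4 (−0.59, edgeR adjusted p = 0.00203), mt-Nd5 (−0.73, 9.52e-05) and mt-Nd6 (−0.84, 0.000204) were then lower. In KO clones mt-Nd5 (−0.86, edgeR adjusted p = 3.48e-05), mt-Nd6 (−0.91, 0.000111) and mt-Co1 (−0.55, 0.011) joined mt-Cytb and mt-Nd4. The values by clone differ widely. mt-Nd5 had 1207, 394.7 and 882.2 CPM in EpiLC KO and 2039, 712.8 and 1714 CPM in naive KO, lower in each clone across a wide spread between clones. In WT clones it had 746.8, 1026 and 787.9 CPM in EpiLCs and 1310, 1462 and 1450 CPM in naive cells. Under the block, Ndufv3 (−0.24, edgeR adjusted p = 0.0355) was also lower in KO clones.

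**Figure D5:**
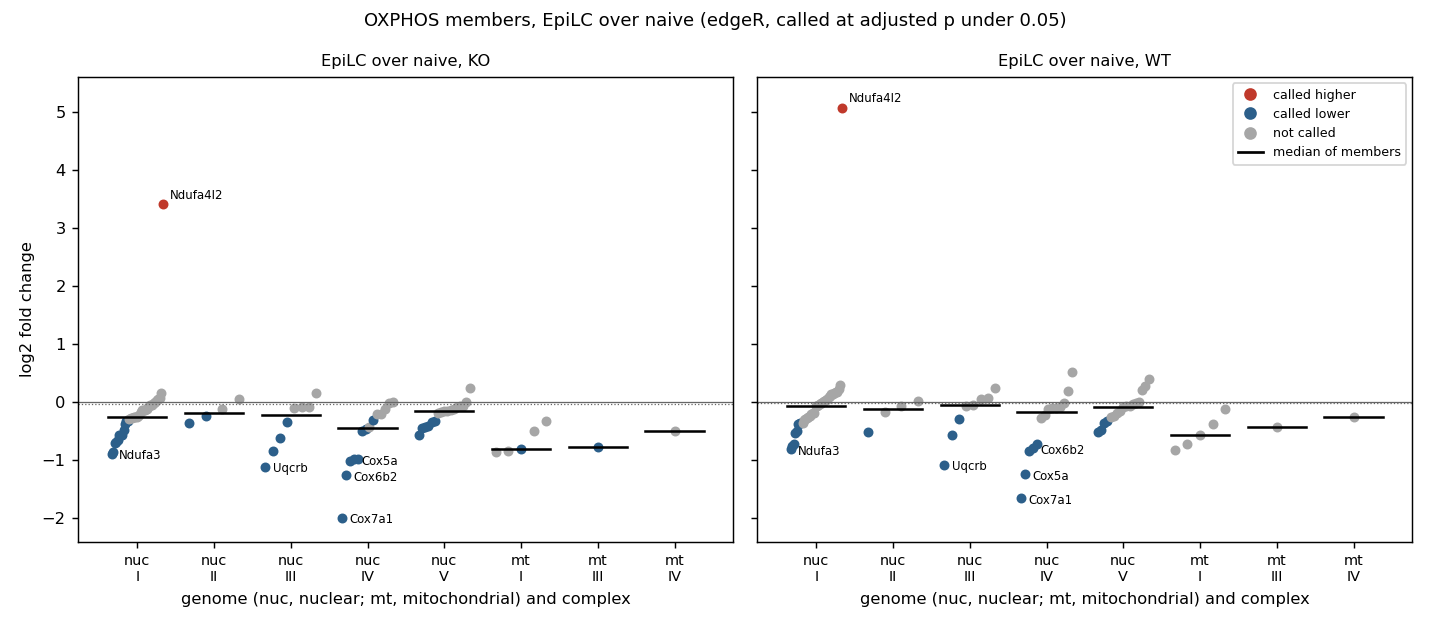
Log2 fold change of EpiLC over naive for each member, by genome and complex, in KO clones (left) and WT clones (right), from the unpaired edgeR fit. Blue points were called lower and red points higher, bars are medians and the dotted line is the median of all genes; Ndufa4l2 alone was called higher, at 3.41 in KO and 5.07 in WT clones.

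The difference between the genotypes in this change was tested as an interaction. Over all genes 0.336% were called. Among the members 0 were called by edgeR or DESeq2, with 0 higher and 2 lower at an unadjusted p under 0.05. The interaction was negative for 69 of 86 members, with a median of −0.12 against −0.01 over all genes. Of the 13 members called lower in KO clones but not in WT clones, namely Atp5c1, Atp5j2, Cox4i1, Cox5b, Cox7b, Ndufa5, Ndufa9, Ndufb11, Ndufb9, Sdha, Uqcrc1, mt-Cytb and mt-Nd4, none was therefore shown to differ between the genotypes in the unpaired fit.

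Genes that work with the respiratory chain were examined as lists. Among mitochondrial ribosomal proteins, 10 of 77 were called in EpiLC KO, all lower, among them Mrps24 (log2 −1.19), Mrps23 (−0.78), Mrpl38 (−0.70) and Mrpl24 (−0.58); in naive cells 2 were lower, Mrpl38 and Mrpl40. Of 14 enzymes of the tricarboxylic acid cycle, which feeds complexes I and II, 6 were called in EpiLC KO, all lower, among them Idh2 (−1.36), Idh3g, Cs, Idh3b and Ogdh. In naive cells Cs was lower (−0.32) and Suclg2 higher (0.38). These counts stand beside 7.9% of all genes lower in EpiLC KO and 4.99% in naive KO.

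For the lists below, the shares over all genes were 7.14% higher and 7.9% lower in EpiLC KO, and 4.25% and 4.99% in naive KO. The genes are named singly, not as a result about these short lists. Assembly factors, which put the complexes together, went both ways in complex I. In EpiLC KO, Ndufaf3 (−0.71), Ndufaf5 (−0.55) and Ecsit (−0.50) were lower and Tmem126b (0.63) and Acad9 (0.35) higher, of 15 tested; in naive cells Tmem126b (0.48) and Timmdc1 (0.58) were higher. For complex III, Uqcc2 was lower in EpiLC KO (−0.74) and in naive KO (−0.68), of 6 tested. For complex IV, Cox19 was lower (−0.92) and Coa5 higher (0.34) in EpiLC KO, of 17 tested. In naive cells edgeR and DESeq2 called 0, with 1 higher and 1 lower at an unadjusted p under 0.05. Of 13 carriers and subunits named otherwise, Vdac1 and Vdac3, pores of the outer membrane, were lower in EpiLC KO (−0.38 and −0.36) and in naive KO (−0.31 and −0.33). Slc25a31, an ADP/ATP carrier isoform known from testis, was higher in EpiLC KO (1.21). Assembly factors of complexes II (4 tested) and V (3 tested) and 7 genes of inner membrane organisation had 0 calls in either condition by edgeR or DESeq2. At an unadjusted p under 0.05, EpiLC KO had 1 complex V factor higher and 2 inner membrane genes lower, and naive KO 1 inner membrane gene lower.

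Of 13 genes for transcription and replication of mitochondrial DNA, Polrmt, the mitochondrial RNA polymerase, was lower in EpiLC KO (−0.55) and 0 were called in naive cells by edgeR; in that naive contrast 0 had an unadjusted p under 0.05 and 0 were called by DESeq2. Of 14 genes for mitochondrial RNA processing, 0 were called by edgeR or DESeq2 in either condition, with 2 higher and 2 lower at an unadjusted p under 0.05 in EpiLCs and 0 in naive cells. Among nuclear regulators, Ppargc1b, a coactivator of respiratory genes, was lower in EpiLC KO (−0.99) and in naive KO (−1.06). Hif1a, the hypoxia-inducible factor, was higher in EpiLC KO (0.45, edgeR adjusted p = 0.0422), and Lin28a, an RNA-binding protein, in naive KO (1.62). Polrmt, Ppargc1b, Hif1a and Lin28a are single calls, to be read beside the shares over all genes given above, and no result about their lists. Between EpiLC and naive cells, Slc25a4, the ADP/ATP carrier of heart and muscle, was lower (−1.21 in KO and −1.47 in WT clones) and its isoform Slc25a5 higher (0.40 and 0.56). Tfam, which packages mitochondrial DNA, was higher in EpiLCs (0.52 in KO and 0.34 in WT clones). Over all genes, 26.3% to 28% were called in each direction between EpiLC and naive cells, and these genes are again named singly.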

How the data were processed

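Per the file headers, the authors deposited raw read counts per gene, which featureCounts 2.0.1 made from GENCODE vM25 gene models of GRCm38, with an exon length in bp per gene that was used for levels per kb. Per the submitters' processing notes, fastp, FastQC, STAR and DESeq2 were used, versions not given in the sources used here. The header shows no option for strand, multi-mapping or overlapping reads, so by the defaults such shared reads were dropped and strand was ignored, although per the labels' protocols the kit keeps strand.

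TMM factors from edgeR 4.0.16 under R 4.3.3 gave the CPM values; the 346 rows without a symbol stayed out of the members. After filterByExpr (minimum count 10, minimum total 15) 18134 genes, all 86 members among them, entered a quasi-likelihood fit of 12 libraries in 4 groups (8 residual degrees of freedom). Genes were called at a Benjamini-Hochberg adjusted p under 0.05 over all genes tested, and the SE is the log2 fold change divided by the square root of F. The fit was tested on simulated data. Small changes were often missed there, so a member that was not called is not shown to be unchanged. Called genes are given in each direction, and the non-overlap of groups counts genes whose 3 libraries all lie on the same side.

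The members, lists and tests were chosen with earlier results of these data known. Named genes are Pcbp1, the mitochondrial members, members called in KO against WT, up to 4 per complex and contrast with the smallest adjusted p, isoform pairs, and up to 4 per other list; Gabpa and Lrpprc were named after their values were seen. Some genes that the rule picks are counted but not reported here. A replicate number marks the same clone in both conditions: deviations from the group mean correlated between EpiLC and naive libraries of the same number at 0.145, 0.234 and 0.264 in KO and 0.236, 0.235 and 0.218 in WT clones, so the paired fit is given where it changes a call. Alternatives were RLE size factors, library sizes without mitochondrially encoded genes, no filter on low counts and DESeq2 1.42.0. Others were removal of the length trend, the replicate block, and each library left out. For EpiLC against naive cells and the interaction, the block was also run with the length trend removed. Leaving out both KO replicate 2 libraries, chosen after the values were seen, is counted too, except for EpiLC against naive WT. p-values measure the spread between clones, and depth limits members near 1 CPM most.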

Additional observations from a re-analysis of the deposited data

How the results depend on the processing

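A combination paired a named gene, or the summed member CPM of a group, with an alternative setting. Over 1812 combinations, 1688 gave the same outcome, 93 lost the call, 31 gained it and 0 reversed a called direction. For a gene, the same outcome means called or not called as in the main fit. The direction was compared only for genes called there, so a change of sign in an uncalled gene counts as the same. For a summed CPM, it means a shift smaller than the SD of the group. In EpiLC KO against WT, the number of alternatives, of 13, that lost the call was 2 for Ndufa10, 4 for Ndufa13, 6 each for Uqcr10, Cox6a1 and Cox7b2, and 8 each for Ndufa5 and Ndufv3. Between EpiLC and naive cells, the named members that lost the call most often were Uqcrc2 in WT clones (7 of 13) and Sdhb (9), Cox4i1 (8) and Sdha (5 of 14) in KO clones. Leaving out each library in turn, members lower in EpiLC KO numbered 2 to 8 and higher 0 to 1, members lower in naive KO 1 to 2, and members higher in WT EpiLCs against naive 1 to 2. The counts over all genes ranged over 661 to 1600 higher and 707 to 1536 lower in EpiLC KO, 321 to 695 higher and 356 to 1058 lower in naive KO, and 2 to 99 positive and 1 to 58 negative for the interaction. The main counts were 1294, 1432, 771, 905, 41 and 20.

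For the comparisons of EpiLC with naive cells, the replicate block gave 3 members higher in WT clones, and 1 member with a negative interaction (Uqcrc1); over all genes the interaction had 134 positive and 96 negative calls. With the block and the length trend removed, 6 members were higher in WT and 3 in KO clones, 1 had a negative interaction, and over all genes 128 were positive and 105 negative. For KO against WT the replicate number is only a label: KO and WT libraries of the same number correlated at −0.083, −0.098 and −0.266 in EpiLCs and at −0.007, 0.004 and −0.091 in naive cells. The replicate block there gave 656 genes higher and 759 lower in EpiLC KO, with 0 members higher and 2 lower, and 363 genes higher and 450 lower in naive KO.

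RLE size factors gave 2 members higher in WT EpiLCs, and removing the length trend 2 in WT and 2 in KO clones. Without a filter on low counts the interaction called 142 genes positive and 99 negative, and DESeq2 called 303 and 210; DESeq2 also called 3 members lower in naive KO. Without both KO replicate 2 libraries, 926 genes were lower in EpiLC KO, with 0 members higher and 4 lower, 460 genes were higher and 441 lower in naive KO, and the interaction called 0 genes positive and 0 negative. The cause of these shifts was not tested.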
